A study of Mus musculus with 15 samples.

Results

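The UDP-glucuronosyltransferase (Ugt) and cytosolic sulfotransferase (Sult) genes of mouse liver were examined in every library of a study of ethanol feeding with and without carbon tetrachloride. Members were all genes whose symbol begins with Ugt1a, Ugt2a, Ugt2b, Ugt3a or with Sult1 to Sult6. The rule uses the symbols alone, and these gene families were picked with earlier results of these data known. The rule gave 41 of the 24499 genes in the count tables, 20 Ugt and 21 Sult genes. Of these, 29 passed the filter on low counts and were tested, 18 Ugt and 11 Sult genes. Of the 29, Sult3a1 passed only through the OO ethanol arm, Sult2a2 only through the CCl4 ethanol arm and Sult6b1 only through the CCl4 chow arm. The other 12 did not pass it, and no library held more than 2.51 CPM (read counts scaled to the library size) of any of them.

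Messenger RNA of whole liver from adult male C57BL/6 mice (C57BL6/J in the treatment protocol) was sequenced in 15 libraries. CCl4 was injected into the peritoneum at 0.2 ml/kg, 2 times per week over 6 weeks, to cause chronic fibrosis. Ethanol, up to 25 g/kg per day over 3 weeks, was then infused through a gastric tube. For the CCl4 animals the second phase names CCl4 again, on chow and on ethanol, and the protocol gives a reduced dose there. The comparisons set ethanol feeding against chow and CCl4 against none, where the day 20 CCl4 animals are labelled with CCl4 in both phases. Animals given no CCl4 are named OO in the labels, a name that is not explained there. At day 0, before the feeding phase, there were 2 OO libraries (numbers 1 and 2) and 2 CCl4 libraries (3 and 4). OO animals on chow gave library 12 at day 20 and library 5 at day 23. OO animals on ethanol gave libraries 13, 14 and 15 at day 20 and library 6 at day 23. CCl4 animals at day 20 gave libraries 16 and 17 on chow and libraries 18, 19 and 20 on ethanol. The day 20 and day 23 OO libraries of the same feeding were merged into 1 arm, which left 6 arms. The day 23 libraries carry another substudy number, and their second phase is labelled with the feeding alone, whereas day 20 names OO again. All ethanol arms carry HFD (high-fat diet) in the labels and the control arms carry chow, so ethanol and diet cannot be told apart. The labels do not state that libraries came from separate animals, so p-values here measure the spread between these samples.

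Glucuronosyltransferases of the endoplasmic reticulum join glucuronic acid from UDP-glucuronic acid to bilirubin, steroids, bile acids and drugs, and cytosolic sulfotransferases join sulfate from the donor PAPS to phenols, steroids and bile acids. Both reactions make lipophilic compounds soluble enough for export into bile or blood. The Ugt1a genes are alternative first exons of a locus with common later exons, Ugt2b genes lie in a cluster of close copies, and several Sult2a, Sult3a and Sult1e genes of mouse liver are known for higher expression in females.

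Libraries held 10347844 to 28843258 gene counts, and members held 32494 to 187067 of them, or 0.29% to 0.75%. Levels are CPM after TMM normalisation. A level of 1 count was 0.0377 to 0.0992 CPM depending on the library. The hepatocyte markers Alb, Apoa1, Ttr, Serpina1c and Cps1 summed to 46400 CPM or more in every library. Of 7 exocrine pancreas markers, the summed level was 112 CPM in library 6 (OO ethanol, day 23) and 119 CPM in library 12 (OO chow, day 20), against at most 2.18 CPM in the others. The summed level of 5 kidney tubule markers was 2.21 CPM in library 15, 2.02 CPM in library 1 and at most 0.718 CPM in the others. Because whole liver was sequenced, fewer cells of a type and less RNA per cell cannot be told apart in any level below.

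Ugt2b transcripts made up most of the Ugt signal. Their summed level was 3340 ± 918 CPM (SD, n = 2) in OO livers at day 0, against 392 ± 65 for Ugt1a, 554 ± 40.5 for Ugt3a and 272 ± 47.9 for Ugt2a. It was 4500 ± 830 CPM (n = 4) in OO ethanol livers and 1920 ± 292 CPM (n = 3) in CCl4 ethanol livers, and these libraries did not overlap. The summed Sult2 level was 806 ± 203 CPM (n = 2) in OO livers at day 0, 568 ± 204 (n = 2) in later OO chow livers, 306 ± 78.3 (n = 4) in OO ethanol livers and 39 ± 29.3 (n = 3) in CCl4 ethanol livers. Nearly all of it was Sult2a8. The summed Sult1 level did not follow that order, at 592 ± 145 CPM (n = 4) in OO ethanol livers and 601 ± 106 (n = 3) in CCl4 ethanol livers.

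**Figure D1:**
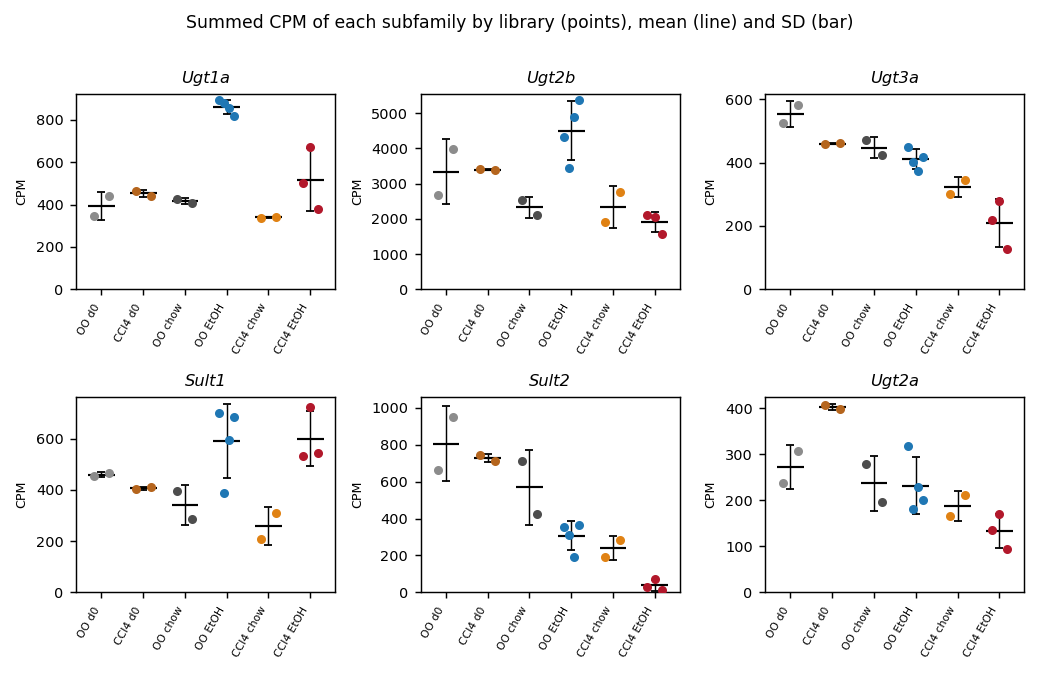
Summed TMM-normalised CPM of 6 subfamilies (vertical axes, from 0) by arm, with a point per library, a line at the mean and a bar of 1 SD. Ugt1a and Ugt2b sums are highest in OO ethanol livers, and the Sult2 sum is lowest in CCl4 ethanol livers at 14.1 to 71.3 CPM.

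To set genes side by side, levels were divided by the kilobases of transcript whose 50-base windows occur in no other gene, and again by the kilobases of the whole transcript. The first scale holds only if reads in shared stretches were never counted, which is not known. Ugt2b5 was the highest member in OO livers at day 0, at 901 CPM per kb of own windows and 511 per kb of transcript. Sult2a8 followed among the members with mostly own windows, at 383 and 374, and Ugt2b36 at 347 and 337. In OO ethanol livers Ugt2b5 was at 1070 and 608 CPM per kb and Sult2a8 at 143 and 140. In CCl4 ethanol livers Sult1a1 was at 345 and 305, Ugt2b5 at 349 and 198, Ugt2b36 at 233 and 226 and Sult2a8 at 16.6 and 16.2. The place of Ugt1a1 depended on the scale, since 19.8% of its windows are its own. It was at 488 CPM per kb of own windows in CCl4 ethanol livers, above all other members with a level on both scales, and at 94.4 per kb of transcript, below 5 of them. Windows were taken from the longest protein-coding transcript of each gene. That of Ugt1a6a has no own window, so the gene gets no level on the first scale, although 2142 of its 4312 annotated exonic bases lie in no other gene.

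**Figure D2:**
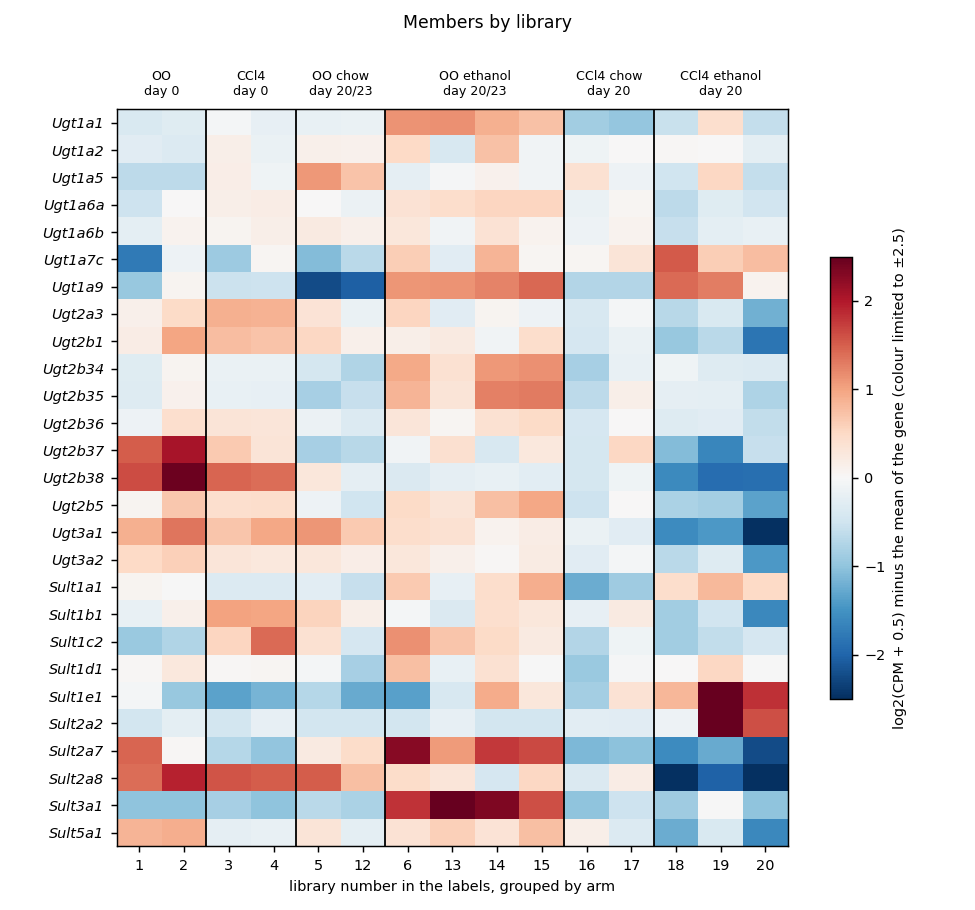
Colour is log2(CPM + 0.5) of a library minus the mean of the gene over the 15 libraries, limited to ±2.5, for the 27 members with at least 1 CPM in some arm. OO ethanol libraries are red for Ugt1a9, Ugt2b34, Ugt2b35 and Sult3a1, and CCl4 ethanol libraries are blue for most Ugt2b and Ugt3a genes and for Sult2a8.

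The changes of the members by edgeR's quasi-likelihood test, called at an adjusted p under 0.05 over all 14315 tested genes, were as follows. With ethanol in OO livers 8 members rose and 1 fell of 29, where 4.43% of all genes were called higher and 3.53% lower, 7.96% in all. The risers were Ugt1a1, Ugt1a6a, Ugt1a9, Ugt2b5, Ugt2b34, Ugt2b35, Sult1a1 and Sult3a1, and Ugt1a5 fell. With ethanol in CCl4 livers Ugt1a9 and Sult1a1 rose and Ugt2b38, Ugt3a1 and Sult2a8 fell, where 0.475% of all genes were called higher and 0.789% lower, 1.26% in all. Between CCl4 and OO livers that both had ethanol, 19 members were lower and 2 were higher in CCl4 livers, where 13.9% of all genes were called lower and 15.1% higher, 29% in all. The 19 were 13 Ugt genes, among them all 7 tested Ugt2b and both Ugt3a genes, and Sult1b1, Sult1c2, Sult2a7, Sult2a8, Sult3a1 and Sult5a1. The 2 higher genes were Sult1e1 and Sult2a2. Without the 3 members that passed the filter through a single arm, the counts were 7 higher and 1 lower, 2 higher and 3 lower, and 1 higher and 18 lower of 26 in these comparisons. The median log2 change of the 29 members was 0.55 with ethanol in OO livers, -0.30 with ethanol in CCl4 livers and -1.03 for CCl4 against OO under ethanol. Over the 26 it was 0.55, -0.30 and -1.04, and over all genes tested -0.01, 0.01 and -0.05. These comparisons share libraries and are not independent of each other.

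**Figure D3:**
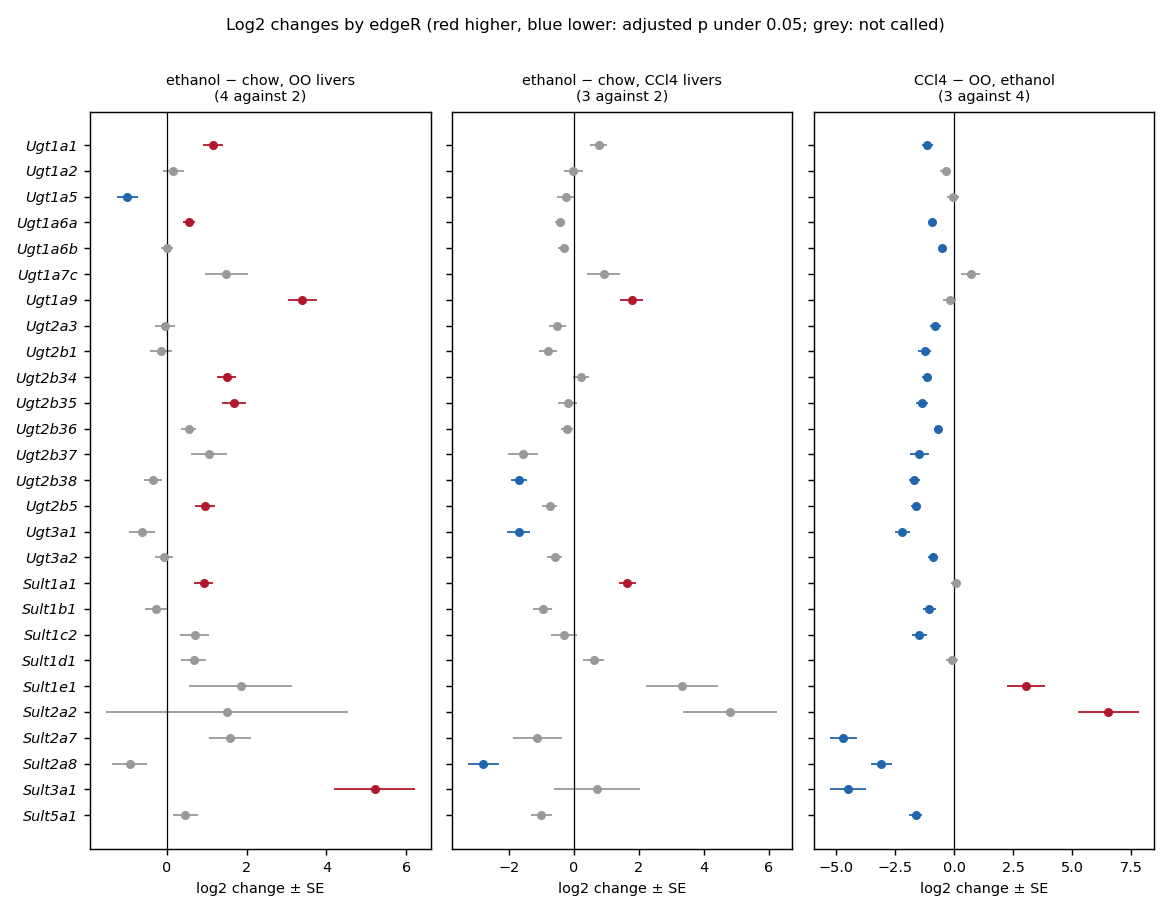
Log2 change (horizontal axes, scaled separately) with a bar of 1 SE for the 27 members in 3 comparisons by edgeR, red for higher and blue for lower calls and grey for members not called. Ugt1a9 is red in both ethanol comparisons, and Ugt members of the third panel are blue or grey with none red.

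Among the Ugt1a genes, Ugt1a1 is the enzyme that conjugates bilirubin, Ugt1a6a conjugates small phenols, and Ugt1a9 conjugates bulky phenols and fatty acids in humans. All 8 lie on chromosome 1 (GRCm38, GENCODE M21), and each shares exonic bases with 8 other Ugt1a genes. Reads listed as ambiguous were not counted for genes, but the rule that sorted reads in the shared exons is not given. An error in splitting reads between these genes could not be seen here. Ugt1a9 spans chr1:88070800-88218997 and Ugt1a1 spans chr1:88211959-88218997, both on the plus strand. The RefSeq promoters of these genes (GRCm38.p6, 250 bases before to 50 after the start) are shown because both genes rose with ethanol in OO livers. Capitals mark GTTAAT, the half-site of the HNF1 recognition palindrome, and AGGTCA, the half-site of nuclear receptors, each searched on both strands. The first is the promoter of Ugt1a1 at chr1:88211709-88212008 and the second that of Ugt1a9 at chr1:88070529-88070828, both plus strand.
Ugt1a1: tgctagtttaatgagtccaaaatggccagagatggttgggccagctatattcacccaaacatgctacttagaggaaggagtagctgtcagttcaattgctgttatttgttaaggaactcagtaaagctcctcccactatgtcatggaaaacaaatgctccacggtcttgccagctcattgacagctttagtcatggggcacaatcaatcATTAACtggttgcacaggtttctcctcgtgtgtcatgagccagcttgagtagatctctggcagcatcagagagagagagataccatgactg
Ugt1a9: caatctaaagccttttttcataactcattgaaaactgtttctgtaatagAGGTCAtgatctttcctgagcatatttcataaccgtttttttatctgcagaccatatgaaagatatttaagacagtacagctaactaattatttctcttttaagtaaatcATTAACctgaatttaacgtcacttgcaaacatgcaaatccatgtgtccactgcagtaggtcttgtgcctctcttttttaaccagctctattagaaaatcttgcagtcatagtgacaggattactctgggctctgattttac

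In both promoters GTTAAT is on the minus strand, at -41 from the gene start in Ugt1a1 and at -91 in Ugt1a9. Of 38 promoter entries matched to 35 members, 13 held GTTAAT, against 7.1% of all 32851 promoters in the table. They were those of Ugt1a1, Ugt1a6a, Ugt1a9, Ugt1a10, Ugt2a3, Ugt3a1, Sult1a1, Sult1d1, Sult2a3, Sult2a4, Sult2a5, Sult2a6 and Sult3a2, and members with similar promoters are not independent. AGGTCA was in 10 of the 38 entries and in 16.3% of all promoters. Of the other letters searched, TTNNGCAA (a C/EBP site) was in 9 entries and 10.8% of all, GCGTG (the AHR core) in 5 and 32.4%, and TGACNNNGC (the antioxidant response core) in 0 and 12.4%. These matches describe letters and were not tested against any binding.

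Ugt1a9 was at 42.9 and 86.4 CPM in the OO libraries 1 and 2 of day 0, 56.8 and 57.4 in the CCl4 libraries 3 and 4 of day 0, and 17.3 and 19.8 in the later OO chow libraries 5 and 12. With ethanol it was at 179, 180, 196 and 226 CPM in the OO libraries 6, 13, 14 and 15. The later CCl4 libraries were at 49.8 and 50 CPM on chow (16 and 17) and 221, 202 and 88.4 on ethanol (18, 19 and 20). Every ethanol library stood above every chow or day 0 library, library 20 by only a small margin. With ethanol Ugt1a9 was 10.6-fold higher in OO livers, a log2 change of 3.40 ± 0.37 (SE) with an edgeR adjusted p of 0.000224. That fold is against a later OO chow mean of 18.5 CPM, below the OO day 0 mean of 64.7 CPM, a difference not called. In CCl4 livers Ugt1a9 was 3.42-fold higher with ethanol, a log2 change of 1.78 ± 0.34 with an edgeR adjusted p of 0.0229. The OO change remained called in all 13 alternatives, and within days the fold was 10.1 at day 20 and 10.3 at day 23. The CCl4 change was not called without library 16, 17, 18 or 19, where the adjusted p was 0.225, 0.168, 0.0669 and 0.0629, and had an adjusted p of 0.0953 with the compared arms alone. Under ethanol the CCl4 and OO libraries overlapped, with a log2 difference of -0.20 ± 0.27 (edgeR adjusted p 0.63). On chow the CCl4 mean of 49.9 CPM exceeded the OO mean of 18.5 CPM, a log2 difference of 1.43 ± 0.37 that was not called (adjusted p 0.0806).

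Ugt1a1 was at 180 and 190 CPM in OO and 228 and 202 in CCl4 livers at day 0, 205 and 209 in later OO chow livers and 128 and 119 in CCl4 chow livers. The OO ethanol libraries were at 510, 515, 434 and 388 CPM, and the CCl4 ethanol libraries at 159, 315 and 156. All OO ethanol libraries were above all others, and library 19 stood apart from libraries 18 and 20. Ugt1a1 rose 2.23-fold with ethanol in OO livers, a log2 change of 1.16 ± 0.25 with an edgeR adjusted p of 0.0156. This call was lost without library 5 or library 12, at a log2 change of 1.15 or 1.19. It was also lost with day 20 groups alone and without libraries 6 and 12. Each of these fits left 1 OO chow library. Under ethanol it was 2.20-fold lower in CCl4 than in OO livers, with a log2 change of -1.14 ± 0.22 and an edgeR adjusted p of 0.00161.

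Ugt1a6a was at 48.8 and 69.8 CPM in OO and 76.7 and 79.6 in CCl4 livers at day 0, 69.9 and 62.5 in later OO chow livers and 62.4 and 72.2 in CCl4 chow livers. The OO ethanol libraries were at 89.3, 94.7, 102 and 102 CPM and the CCl4 ethanol libraries at 44, 56.5 and 49.6. The ethanol arms lay on opposite sides of their chow arms, with no overlap. The log2 change with ethanol was 0.55 ± 0.15 in OO livers (edgeR adjusted p 0.0408). This call was lost without library 5, 12, 14 or 15 and without libraries 6 and 12. It was also lost with the compared arms alone (edgeR adjusted p 0.0983) and with day 20 groups alone. Under ethanol CCl4 livers were lower by a log2 change of -0.95 ± 0.13 (edgeR adjusted p 0.000197). All 50-base windows of its longest protein-coding transcript also lie in transcripts of Ugt1a7c in GENCODE M21, so its split from that gene is uncertain.

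Ugt1a5 went the other way. It was at 14.2 and 14.3 CPM in OO livers at day 0, 48.6 and 37.6 in later OO chow livers and 19.4, 22.3, 24.5 and 21.4 in OO ethanol livers. The CCl4 libraries were at 25.7 and 21.1 at day 0, 29.5 and 20.6 on chow and 15.9, 32.6 and 14.9 on ethanol. Only the later OO chow libraries stood apart, above all others. With ethanol in OO livers it fell by 0.98 on the log2 scale (SE 0.26, edgeR adjusted p 0.036), a call lost without library 5, 6, 12, 14 or 15. That call was also lost with day 20 groups alone and without libraries 6 and 12. Of the other Ugt1a genes, Ugt1a6b fell between the ethanol arms, from a mean of 72.7 CPM in OO to 51.1 in CCl4 livers (edgeR adjusted p 0.0126, 0.075 without library 18). Ugt1a2 had arm means of 5 to 7.62 CPM, Ugt1a7c of 1.82 to 8.18 and Ugt1a10 below 1 CPM, and none of these 3 was called in any comparison.

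**Figure D4:**
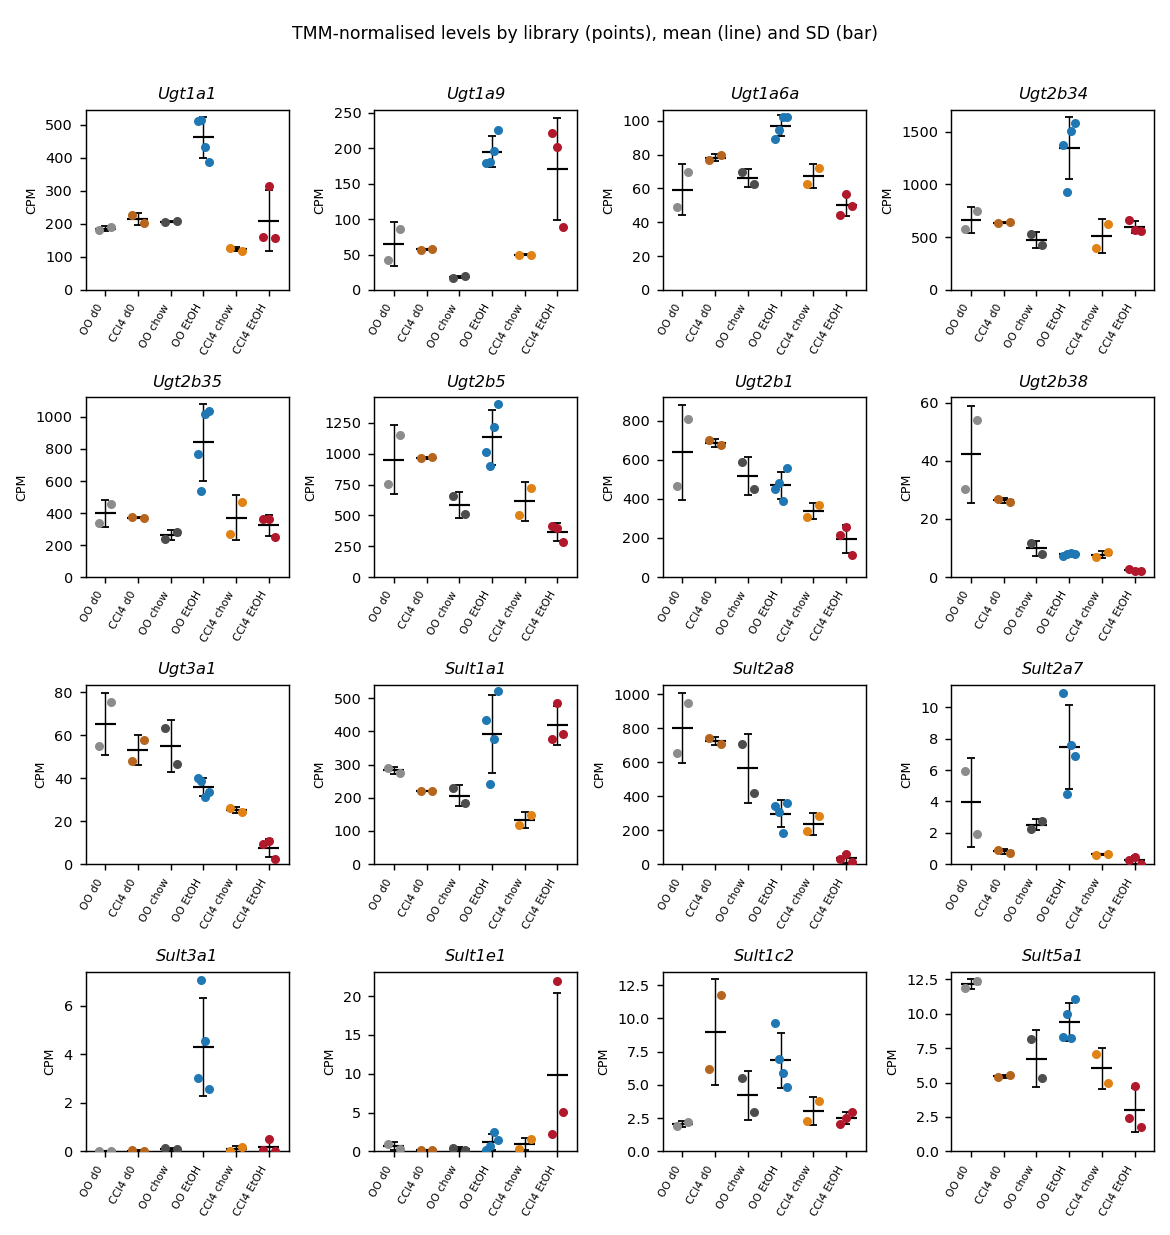
TMM-normalised CPM (vertical axes, from 0) of 16 members by arm, with a point per library, a line at the mean and a bar of 1 SD. Ugt1a9 and Sult1a1 are raised in both ethanol arms, Ugt2b34, Ugt2b35 and Sult3a1 in the OO ethanol arm, and Ugt2b38 falls from day 0 onward.

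The Ugt2b genes, which conjugate steroids, bile acids and drugs, lie within a cluster on chromosome 5. Ugt2b34 (chr5:86889767-86906937, minus strand) was at 578 and 753 CPM in OO and 636 and 640 in CCl4 livers at day 0. It was at 530 and 422 CPM in later OO chow livers and at 1370, 930, 1510 and 1580 with ethanol. The CCl4 values were 401 and 626 CPM on chow and 665, 568 and 561 with ethanol, so only the OO ethanol libraries left the range of the rest. It rose 2.83-fold with ethanol in OO livers, a log2 change of 1.5 ± 0.24 (edgeR adjusted p 0.00393, 0.0876 without library 12 and 0.113 without libraries 6 and 12). In CCl4 livers it was not called. Under ethanol it was 2.25-fold lower in CCl4 than in OO livers (log2 change -1.17 ± 0.20, edgeR adjusted p 0.00089).

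Ugt2b35 (chr5:87000860-87013275, plus strand) was at 338 and 458 CPM in OO and 376 and 368 in CCl4 livers at day 0, 240 and 284 in later OO chow livers and 770, 535, 1020 and 1040 in OO ethanol livers. In CCl4 livers it was at 271 and 471 CPM on chow and 364, 361 and 248 with ethanol. As with Ugt2b34, the OO ethanol libraries were above all others. It rose 3.21-fold with ethanol in OO livers, a log2 change of 1.68 ± 0.30 (edgeR adjusted p 0.00703). The call was lost with day 20 groups alone (adjusted p 0.0679), without library 12 (0.0834) and without libraries 6 and 12 (0.097). Under ethanol CCl4 livers were 2.59-fold lower, a log2 change of -1.38 ± 0.25 (edgeR adjusted p 0.00136).

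Ugt2b5 (chr5:87124960-87140318) and Ugt2b38 (chr5:87409942-87424203) are close copies on the minus strand. Their RefSeq promoters at chr5:87140291-87140590 and chr5:87424154-87424453 were identical at 84.2% of aligned positions and are printed because these copies were called in partly different comparisons. Capitals mark AGGTCA as above.
Ugt2b5: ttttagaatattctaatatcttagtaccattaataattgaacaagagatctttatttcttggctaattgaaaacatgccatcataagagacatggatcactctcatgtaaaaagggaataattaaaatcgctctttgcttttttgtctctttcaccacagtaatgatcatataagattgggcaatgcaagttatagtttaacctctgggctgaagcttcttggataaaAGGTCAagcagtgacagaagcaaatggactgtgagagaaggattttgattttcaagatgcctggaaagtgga
Ugt2b38: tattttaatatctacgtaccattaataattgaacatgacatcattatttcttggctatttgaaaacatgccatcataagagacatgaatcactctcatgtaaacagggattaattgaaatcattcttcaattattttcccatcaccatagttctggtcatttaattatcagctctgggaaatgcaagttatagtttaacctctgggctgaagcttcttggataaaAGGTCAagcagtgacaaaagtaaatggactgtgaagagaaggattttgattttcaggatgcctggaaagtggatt

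Both hold AGGTCA, at -22 in Ugt2b5 and -25 in Ugt2b38, within a stretch that the pair shares. Their transcripts share 629 windows of 50 bases, and 58.3% of Ugt2b5 windows and 62.6% of Ugt2b38 windows were found in no other gene. Reads from the shared stretches that aligned to both would not have been counted for either.

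Ugt2b5 was at 753 and 1150 CPM in OO and 961 and 972 in CCl4 livers at day 0, and at 657 and 511 in later OO chow livers. It was at 1010, 901, 1220 and 1400 CPM with ethanol in OO livers. The CCl4 values were 504 and 724 CPM on chow and 418, 400 and 286 with ethanol, the 3 lowest values of the series. It was 1.94-fold higher with ethanol than with chow in OO livers (log2 change 0.96 ± 0.24, edgeR adjusted p 0.0317), while the OO ethanol and OO day 0 libraries overlapped. The call was lost without library 5, 12, 14 or 15 and without libraries 6 and 12. It was also lost with the compared arms alone and with day 20 groups alone. Under ethanol Ugt2b5 was 3.08-fold lower in CCl4 livers, a log2 change of -1.62 ± 0.22 with an edgeR adjusted p of 0.000149.

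Ugt2b38 was at 30.3 and 54 CPM in OO and 26.9 and 25.8 in CCl4 livers at day 0. Later it was at 11.7 and 8.07 CPM in OO chow, 7.23, 8.03, 8.29 and 7.86 in OO ethanol, 6.82 and 8.71 in CCl4 chow and 2.83, 2.15 and 2.19 in CCl4 ethanol livers. All later libraries were below all day 0 libraries, and the CCl4 ethanol libraries were the lowest. In later OO chow against OO day 0 livers Ugt2b38 and Ugt2b37 fell and no member rose, where 0.0279% of all genes were called lower and 0.0559% higher, 0.0838% in all. Ugt2b38 was 4.26-fold lower (log2 change -2.09 ± 0.26, edgeR adjusted p 0.0045). That call was lost without library 12, without libraries 6 and 12 and with the compared arms alone (edgeR adjusted p 0.0904). Between CCl4 chow and CCl4 day 0 livers 3 members fell and 0 rose, where 3.92% of all genes were called lower and 7.2% higher, 11.1% in all. Ugt2b38 was 3.39-fold lower there (log2 change -1.76 ± 0.26, edgeR adjusted p 0.00216), and the other 2 were Ugt2a3 and Sult1c2. In that comparison 5 of 5 macrophage markers were higher and 2 of 5 hepatocyte markers lower. The macrophage sum was 945 and 1380 CPM in CCl4 chow and 340 and 332 CPM in CCl4 day 0 livers, and the hepatocyte sum 79600 and 63800 against 81400 and 77200 CPM. Their part in the member changes was not tested. With ethanol in CCl4 livers it was 3.21-fold lower (log2 change -1.68 ± 0.25, edgeR adjusted p 0.00621, and 0.0962 without library 17).

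Ugt2b37, the third close copy, was at 7.7 and 11.5 CPM in OO and 4 and 3.07 in CCl4 livers at day 0, 1.1 and 1.27 in later OO chow and 2.18, 3.27, 1.67 and 2.92 in OO ethanol livers. In CCl4 livers it was at 1.61 and 3.59 CPM on chow and 0.845, 0.429 and 1.43 with ethanol. The OO day 0 pair stood above all other libraries. Between later OO chow and OO day 0 livers it was 8.08-fold lower (log2 change -3.01 ± 0.50, edgeR adjusted p 0.0436). The call was lost without any of the 4 libraries compared, with day 20 groups alone and without libraries 6 and 12. Under ethanol it was 2.80-fold lower in CCl4 livers (edgeR adjusted p 0.0137), and not without library 18 or 19, with an adjusted p of up to 0.0574.

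Ugt2b1, whose rat counterpart conjugates morphine, was at 467 and 809 CPM in OO and 702 and 673 in CCl4 livers at day 0, 587 and 449 in later OO chow and 452, 480, 387 and 557 in OO ethanol livers. CCl4 livers were at 308 and 368 CPM on chow and 214, 257 and 115 with ethanol, below every other arm. Ethanol gave no call in OO or CCl4 livers, and under ethanol CCl4 livers were 2.40-fold lower (log2 change -1.26 ± 0.26, edgeR adjusted p 0.00261). All of its 50-base windows were its own. Ugt2b36, with arm means of 427 to 700 CPM, also fell between the ethanol arms, by 0.71 on the log2 scale (edgeR adjusted p 0.00552).

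Ugt2a3, the tested Ugt2a gene, was at 238 and 306 CPM in OO and 407 and 398 in CCl4 livers at day 0 and at 279 and 195 in later OO chow livers. With ethanol the OO libraries were at 318, 180, 229 and 200 CPM. The CCl4 libraries were at 165 and 211 CPM on chow and 136, 169 and 94.3 with ethanol. It fell from day 0 to day 20 in CCl4 chow livers (2.14-fold, log2 change -1.10 ± 0.30, edgeR adjusted p 0.0331), and the call was lost without library 3, 4, 16 or 17. Its fall between the ethanol arms was by 0.80 on the log2 scale (edgeR adjusted p 0.0183). It was not called without library 6, 18 or 20, without libraries 6 and 12 or with the compared arms alone. Ugt2a1 and Ugt2a2 were at or under 0.0917 CPM in every library.

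The Ugt3a genes on chromosome 15 belong to a family whose human members use sugars other than glucuronic acid, UGT3A1 taking N-acetylglucosamine. Ugt3a1 (chr15:9276888-9315032, plus strand) was at 55.1 and 75.5 CPM in OO and 48.2 and 57.9 in CCl4 livers at day 0, 63.6 and 46.4 in later OO chow and 40.1, 38.7, 31.1 and 33.6 in OO ethanol livers. Values in CCl4 livers were 26.3 and 24.1 CPM on chow and 9.51, 10.6 and 2.53 with ethanol, and no CCl4 ethanol library reached any other. Ugt3a1 fell with ethanol in CCl4 livers, 3.26-fold with a log2 change of -1.70 ± 0.36 (edgeR adjusted p 0.0377). That call was lost without library 16, 17 or 18, with the compared arms alone, with day 20 groups alone and without libraries 6 and 12. Under ethanol CCl4 livers were 4.63-fold lower, a log2 change of -2.21 ± 0.32 with an edgeR adjusted p of 0.000288. Ugt3a2 was more abundant, with arm means of 200 to 489 CPM, and fell by 0.91 on the log2 scale between the ethanol arms (edgeR adjusted p 0.00362).

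Among the sulfotransferases, Sult1a1, the main phenol sulfotransferase of liver, was higher with ethanol in both backgrounds. It was at 290 and 275 CPM in OO and 219 and 219 in CCl4 livers at day 0, and at 229 and 184 in later OO chow livers. With ethanol the OO libraries were at 434, 241, 377 and 520 CPM. Livers given CCl4 were at 117 and 149 CPM on chow and 377, 484 and 392 with ethanol, so the ethanol and chow libraries of each background did not overlap. Sult1a1 (chr7:126672865-126676432, minus strand) rose 1.91-fold in OO livers (log2 change 0.93 ± 0.24, edgeR adjusted p 0.0352) and 3.14-fold in CCl4 livers (log2 change 1.65 ± 0.26, edgeR adjusted p 0.00773). The OO call was lost without library 5, 6, 12, 14 or 15 and without libraries 6 and 12. It was also lost with the compared arms alone and with day 20 groups alone. Library 13, at 241 CPM, was below both OO day 0 libraries. The CCl4 call was lost without library 16 (adjusted p 0.141) or 17 (0.0509). The test of the difference between the backgrounds gave a log2 value of 0.72 ± 0.34 that was not called (edgeR adjusted p 0.563).

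Sult1c2 was at 1.93 and 2.23 CPM in OO and 6.19 and 11.8 in CCl4 livers at day 0, and it was the single member called there, where 0.943% of all genes were called higher and 1.17% lower, 2.11% in all. It was 4.26-fold higher in CCl4 livers (log2 change 2.09 ± 0.44, edgeR adjusted p 0.0272). This difference was not called without library 1, 2 or 4 or by limma-voom with lane as a block. It was at 5.52 and 2.93 CPM in later OO chow and 9.68, 6.94, 5.89 and 4.86 in OO ethanol livers. CCl4 livers were at 2.27 and 3.79 CPM on chow and 2.03, 2.51 and 2.95 with ethanol. It fell 2.93-fold from day 0 to day 20 in CCl4 chow livers (edgeR adjusted p 0.0322). This call was lost without library 3, 4, 16 or 17 and by limma-voom with lane as a block. Under ethanol Sult1c2 was 2.78-fold lower in CCl4 than in OO livers (log2 change -1.48 ± 0.33, edgeR adjusted p 0.0042).

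Sult1b1, which sulfates thyroid hormones, had arm means of 8.29 to 32.5 CPM and was lower in CCl4 than in OO livers under ethanol (log2 change -1.05 ± 0.26, edgeR adjusted p 0.00784). Sult1d1, which sulfates catecholamines in mice, had arm means of 107 to 174 CPM and was not called in any comparison. Sult5a1 fell from a mean of 9.43 CPM in OO to 2.99 CPM in CCl4 livers under ethanol (log2 change -1.64 ± 0.29, edgeR adjusted p 0.00096).

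Sult1e1, the oestrogen sulfotransferase, was at 1.01 and 0.319 CPM in OO and 0.125 and 0.198 in CCl4 livers at day 0, 0.455 and 0.158 in later OO chow and 0.113, 0.694, 2.5 and 1.41 in OO ethanol livers. The CCl4 libraries were at 0.366 and 1.53 CPM on chow and 2.28, 22 and 5.06 with ethanol. Library 19 was far above all others, and library 18 lay within the OO ethanol range. Under ethanol it was 8.28-fold higher in CCl4 livers (log2 change 3.05 ± 0.82, edgeR adjusted p 0.0136). Without library 19 the log2 change was 1.62 with an adjusted p of 0.148.

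The Sult2a genes of chromosome 7 sulfate hydroxysteroids and bile acids. Sult2a8 (chr7:14410686-14446769, minus strand), a bile acid sulfotransferase of mouse liver, was at 656 and 948 CPM in OO and 742 and 711 in CCl4 livers at day 0. It was at 710 and 421 CPM in later OO chow and 344, 307, 186 and 358 in OO ethanol livers. Values in CCl4 livers were 193 and 285 CPM on chow and 30.9, 61.3 and 12.1 with ethanol, the 3 lowest libraries by a wide margin. It fell 6.86-fold with ethanol in CCl4 livers (log2 change -2.78 ± 0.48, edgeR adjusted p 0.0131), a call lost without library 17 (adjusted p 0.117) or 18 (0.0543) and with the compared arms alone (0.0705). Under ethanol it was 8.56-fold lower in CCl4 than in OO livers (log2 change -3.10 ± 0.45, edgeR adjusted p 0.000263), called in all 14 alternatives. No 50-base window of its transcript was found in another gene.

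Sult2a7 was at 5.96 and 1.91 CPM in OO and 0.938 and 0.693 in CCl4 livers at day 0, 2.27 and 2.77 in later OO chow and 10.9, 4.46, 7.61 and 6.89 in OO ethanol livers. Livers given CCl4 were at 0.586 and 0.665 CPM on chow and 0.296, 0.491 and 0 with ethanol. CCl4 and OO libraries did not overlap at any stage. Under ethanol the arms held 15 and 559 counts, and CCl4 livers were 28.8-fold lower at equal depth, with a 95% exact interval of 17.3 to 51.7 that covers counting error alone. The fitted log2 change was -4.70 ± 0.57 (edgeR adjusted p 8.5e-05).

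Other Sult2a genes were at or near 0 except in CCl4 ethanol livers. Sult2a1, a hydroxysteroid sulfotransferase, was at 0.0423, 2.51 and 0.338 CPM in libraries 18, 19 and 20, at 0.0798 in library 2, 0.0883 in library 15 and 0.0733 in library 16, and at 0 in the other 9. It did not pass the filter and was not tested. Sult2a2 was at 0.127, 4.91 and 1.6 CPM in libraries 18, 19 and 20 and at most 0.0992 CPM elsewhere. CCl4 ethanol and OO ethanol livers held 102 and 1 counts of it, a ratio of 132 with a 95% exact interval of 23.2 to 5270 for counting error alone. Library 19 held 80 of the 102 counts, and without it the ratio was 41.6 (interval 6.72 to 1720). Because Sult2a2 passed the filter through the arm where it is high, its call as higher (edgeR adjusted p 0.00267) is given as a description. With no filter the adjusted p was 0.000848, by limma-voom with lane as a block it was 0.0556, and without library 19 or 20 it was not tested. Only 37.9% of its windows were found in no other gene, and 286 were shared with Sult2a1, so the pair is not cleanly separated. Sult2a5 had 1.78 CPM in library 19 and no count in the other libraries. Library 19 was also the highest for Sult1e1, Sult2a1, Sult2a2 and Sult3a2 (0.552 CPM).

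Sult3a1 (chr10:33857721-33879532, plus strand), which sulfates amines, was seen in OO ethanol livers and hardly elsewhere. The OO ethanol libraries were at 3.01, 7.04, 4.53 and 2.56 CPM. The later OO chow libraries were at 0.13 and 0.0791 CPM, the OO day 0 libraries at 0 and 0, and the CCl4 day 0 libraries at 0.0625 and 0. CCl4 livers were at 0 and 0.2 CPM on chow and 0.0423, 0.491 and 0 with ethanol. The OO ethanol libraries held 267 counts and the later OO chow libraries 3, a ratio of 37.1 with a 95% exact interval of 12.6 to 181 for counting error alone (edgeR log2 change 5.21 ± 1.01, adjusted p 0.0107). Sult3a1 passed the filter through the OO ethanol arm, so its calls against that arm are given as a description, and with no filter the adjusted p was 0.00467. The call against chow was lost without library 5, without library 12, without libraries 6 and 12 and with day 20 groups alone. CCl4 ethanol livers held 9 counts, 22.9-fold lower than OO ethanol livers at equal depth (interval 11.9 to 50.6), with an edgeR adjusted p of 0.000955.

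Of the 12 members not tested, Sult1c1, Sult2a4 and Sult2a6 had no count in any library. The rest were Sult2a1, Sult2a3, Sult2a5, Sult2b1, Sult3a2, Sult4a1, Sult6b2, Ugt2a1 and Ugt2a2. Sult2a3 was at 0.245 CPM in library 19 and at 0 in the others. Sult4a1 had its highest levels in CCl4 ethanol livers, at 0.549, 0.184 and 1.18 CPM, with 30 counts there against 6 in OO ethanol livers. Sult6b1 was tested, stayed below 1 CPM in all libraries and was not called.

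The direct test of whether ethanol acted differently in CCl4 and OO livers called no member by edgeR, where 0.119% of all genes were called lower and 0.021% higher, 0.14% in all. There were 13 members with an unadjusted p under 0.05, and 25 of 29 estimates were negative, with a median of -0.70 against -0.01 over all genes. The shares of all genes with an unadjusted p under 0.05 or a negative estimate were not counted. The counts of 13 and 25 therefore have no background and are given as descriptions. The smallest unadjusted p belonged to Ugt2b5, with a log2 value of -1.69 ± 0.34 (edgeR adjusted p 0.113), and to Ugt2b35, with -1.88 ± 0.41 (0.15). DESeq2 called 6 members lower in the same test, Ugt1a6a, Ugt1a9, Ugt2b34, Ugt2b35, Ugt2b37 and Ugt2b5, where it called 1.15% of all genes in either direction. Without library 13 edgeR called Ugt2b35 (adjusted p 0.0389) and 0.217% of all genes.

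CCl4 against OO on chow called no member by edgeR, where 1.29% of all genes were called higher and 0.37% lower, 1.66% in all. There were 8 members with an unadjusted p under 0.05, and the share of all genes at that level was not counted. DESeq2 called 1 member and 3.63% of all genes, and the median log2 difference was -0.18 against -0.01 over all genes. Sult2a8 had means of 239 CPM in CCl4 and 566 CPM in OO chow livers (log2 difference -1.24 ± 0.53, edgeR adjusted p 0.295). Ugt3a1 had means of 25.2 and 55 CPM (log2 difference -1.13 ± 0.39, edgeR adjusted p 0.183). These 2 against 2 contrasts had wide errors.

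Genes that feed, regulate or clear the conjugates were described from lists. In CCl4 against OO livers under ethanol, all 11 tested export and uptake genes were called, 9 lower and 2 higher. Among 11 genes for UDP-glucuronic acid supply 4 were lower and 2 higher, and among 11 for PAPS and sulfate supply 4 were lower and 1 higher. Of 20 receptors and factors 7 were lower and 1 higher, of 14 standard target genes of those factors 7 were lower, and of 7 deconjugation genes 1 was lower and 1 higher. With ethanol in OO livers the export and uptake list had 3 higher and 1 lower, the receptors and factors 3 higher and the standard targets 7 higher. In CCl4 livers ethanol gave 2 lower export and uptake genes, 4 higher and 1 lower standard targets, 1 higher deconjugation gene and no call in the supply or regulator lists by edgeR. The share of all genes called in each comparison is the one given above.

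Cyp2b10, the standard target of the receptor CAR, was at 2.71 to 18.7 CPM in all chow and day 0 libraries, at 2430, 992, 1450 and 837 in OO ethanol and at 800, 569 and 1100 in CCl4 ethanol livers. It rose in both backgrounds, with log2 changes of 8.29 ± 0.60 (edgeR adjusted p 1.21e-05) and 5.83 ± 0.53 (1e-04). Nr1i3, which encodes CAR, was at 71.3 and 47.2 CPM in later OO chow and 145, 120, 157 and 133 in OO ethanol livers. The CCl4 values were 32.1 and 32.7 CPM on chow and 46.7, 63.5 and 34.5 with ethanol, so the OO ethanol libraries stood above the rest. It rose 2.35-fold with ethanol in OO livers (edgeR adjusted p 0.0126) and was 2.88-fold lower in CCl4 livers under ethanol (edgeR adjusted p 0.000248). Ugdh, which makes UDP-glucuronic acid, had means of 313 ± 133 CPM (n = 4) and 138 ± 30.6 (n = 3) in OO and CCl4 ethanol livers (log2 change -1.18 ± 0.28, edgeR adjusted p 0.00616). Gusb, the lysosomal glucuronidase that splits glucuronides, was higher there, at 35.6 ± 2.49 and 62.8 ± 2.72 CPM (log2 change 0.82 ± 0.09, edgeR adjusted p 4.1e-05). Papss2, which makes PAPS in liver, had arm means of 127 to 212 CPM and was not called in any comparison. Slc35d1, a transporter of UDP-glucuronic acid into the endoplasmic reticulum, was 1.39-fold lower in CCl4 than in OO livers under ethanol (edgeR adjusted p 0.0477).

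**Figure D5:**
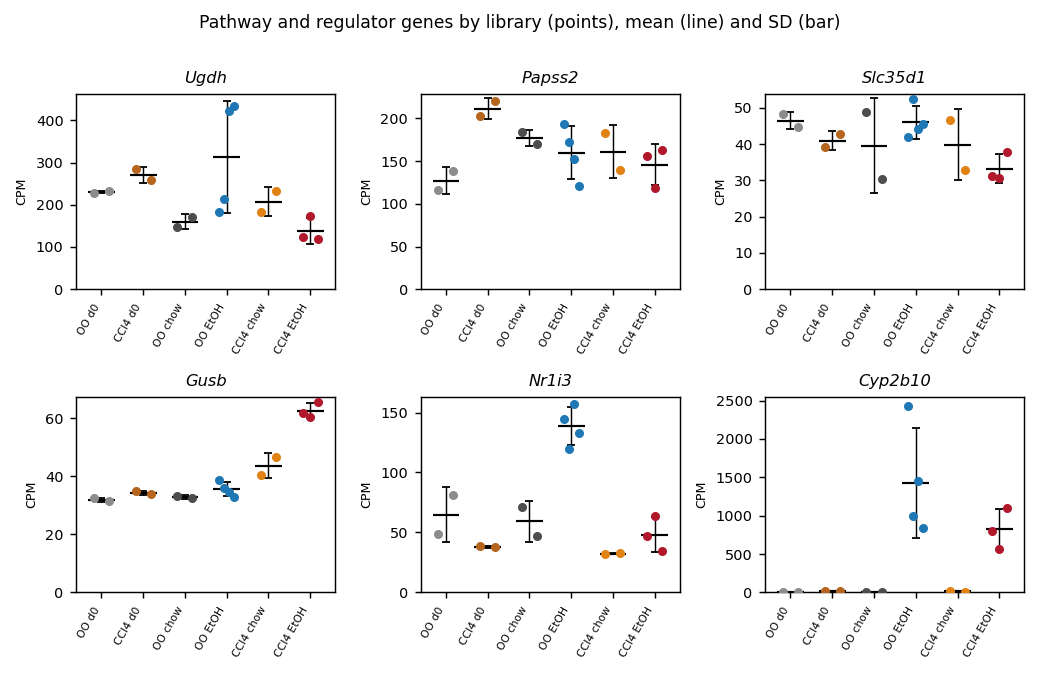
TMM-normalised CPM (vertical axes, from 0) of 6 genes that supply, split or regulate conjugation, by arm, with a point per library, a line at the mean and a bar of 1 SD. Cyp2b10 is high in all 7 ethanol libraries, Nr1i3 in the 4 OO ethanol libraries, and Gusb is highest in the CCl4 ethanol libraries at 60.6 to 65.8 CPM.

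Markers of other liver cells moved in the comparison with the most member calls. Between CCl4 and OO livers under ethanol, 4 of 5 macrophage, 3 of 4 tested lymphocyte, 2 of 5 cholangiocyte and 2 of 5 stellate or myofibroblast markers were higher, 1 of 5 hepatocyte and 1 of 5 sinusoidal endothelial markers were lower. The summed macrophage level was 1090 to 1190 CPM in CCl4 ethanol and 412 to 550 CPM in OO ethanol livers, and that of lymphocytes 76.6 to 104 and 23.5 to 35.8 CPM. The summed cholangiocyte level was 386 to 598 and 40.1 to 75.1 CPM, and that of stellate cells 186 to 358 and 78 to 160 CPM. A single gene made most of 2 of these sums. Ptprc was at 75 to 101 and 22.4 to 34.7 CPM in the lymphocyte sum. In the cholangiocyte sum Spp1 was at 373 to 585 and 36 to 64.3 CPM. Krt19, also of that list, overlapped, at 2.53 to 3.19 and 1.28 to 4.56 CPM. The hepatocyte sum was 55500 to 67000 CPM in CCl4 ethanol and 46400 to 55600 CPM in OO ethanol livers. Alb made most of it, at 43000 to 56800 CPM in CCl4 ethanol and 33000 to 41400 CPM in OO ethanol livers. The sum does not stand for the whole list. Of its 5 markers 3 had a negative and 2 a positive log2 change, with a median of -0.27. Of the markers in these lists, only the B cell gene Ms4a1 was at 0 in any library of these arms, library 13. With ethanol in OO livers 3 of 5 macrophage markers and 1 of 4 lymphocyte markers fell and 1 of 3 tested intestine markers rose. The part of these cells in the member changes was not tested.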

How the data were processed

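The authors deposited 1 table of unnormalised counts per library, keyed by gene symbol. The submitters' processing notes name GSNAP, the build mm10 and DESeq2 1.12.3. How reads were counted, on which annotation and with or without strand is not given in the sources used here, so reads of overlapping genes on opposite strands may not be separated. The 5 entries of reads given to no gene were left out. Of the reads listed, 18.1% to 28.8% aligned to more than 1 place and 0.346% to 0.682% were ambiguous, and neither were counted for genes, which can lower genes with close copies. Replicates differed by more than counting error (chi-square per degree of freedom 3.93 to 78.4). The value of 3.93 was that of libraries 3 and 4, the CCl4 day 0 pair, and all other pairs were at 19.4 to 78.4. That pair was thus much more alike than the others, and the labels do not state that it came from separate animals.

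The filter filterByExpr kept 14315 genes, and TMM scaling factors were then computed on those genes. A model with 1 mean for each arm over all 15 libraries was fitted in edgeR 4.0.16 (R 4.3.3), leaving 9 residual degrees of freedom and a common dispersion of 0.043. Contrasts used the quasi-likelihood test of edgeR, p-values were adjusted by Benjamini-Hochberg over all genes tested, and SE is the log2 change divided by the square root of F. The 8 comparisons share arms. Members, lists and motifs were chosen with earlier results of these data known. Levels are given for tested members with a mean of at least 1 CPM in some arm. Library values are given for 8 fixed members and for up to 4 called members per direction and comparison with a mean of at least 5 CPM. Values at 0 are limited by 3 counts, which is 0.113 to 0.297 CPM. Exact intervals cover counting error only, since they use counts summed over the libraries of an arm and leave out the spread between libraries. PCR copies were not marked. Coordinates and 50-base windows came from GENCODE M21 (41 of 41 members matched) and promoters from RefSeq.

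Alternatives were RLE scaling, no filter, DESeq2 1.42.0, limma-voom (limma 3.58.1) with lane (from the table names) as a random block, the compared arms alone, day 20 groups alone, no libraries 6 and 12, and each library left out. Counts without the members that passed the filter through a single arm, and the Sult2a2 ratio without each library, were added after seeing the data.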

Additional observations from a re-analysis of the deposited data

Results flagged for a closer look

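In the OO ethanol arm, Sult2a2 was at 0.0992 CPM in library 13 and at 0 in the other 3 libraries, and a rule for outlying libraries marked library 13. The value is 1 count. Any single count beside libraries at 0 is marked by that rule, so the mark shows no difference of library 13.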

How the results depend on the processing

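Counts of called members that moved by over 1.5 times were as follows. DESeq2 called 4 members for CCl4 against OO at day 0 (5.27% of all genes it tested), 1 for CCl4 against OO on chow (3.63%), 6 for the interaction (1.15%), 7 for CCl4 chow against CCl4 day 0 (14.3%) and 4 for later OO chow against OO day 0 (2.47%). With the compared arms alone these were 8 at day 0 (17.2%), 2 for ethanol in CCl4 livers (0.713%), 1 on chow (1.61%) and 11 for CCl4 chow against day 0 (17.3%). The counts of 8 and 11 both come from contrasts with the CCl4 day 0 pair, which differed least between its libraries. With no filter 1 member was called on chow (1.52%), and limma-voom with lane as a block called 0 at day 0 (1.63%). With day 20 groups alone ethanol in OO livers gave 2 (3.64%) and later OO chow 1 (1.43%), and without libraries 6 and 12 they gave 1 (0.64%) and 0 (0.0545%). Leaving out each library gave 0 to 1 members at day 0 (0 without library 1, 2 or 4, where 0.609%, 0.684% and 0.299% of all genes were called) and 1 to 11 for ethanol in OO livers (1 without library 12 and 3 without 5, where 0.705% and 4.9% were called, 5 without 14 or 15, 5.53% and 4.94%). It gave 0 to 5 for ethanol in CCl4 livers (0 without library 17, 2 without 16 and 3 without 18, where 0.313%, 0.312% and 0.806% were called) and 18 to 21 for CCl4 against OO under ethanol (19.5% to 32.6%). It gave 0 to 0 on chow, 0 to 1 for the interaction, 1 to 1 for CCl4 chow against day 0 (1% to 4.53%) and 0 to 1 for later OO chow (0.0339% to 1.11%). The cause was not tested. Of the called changes, 16 of 21 for CCl4 against OO under ethanol remained called in every alternative. For ethanol it was 1 of 9 in OO livers and 0 of 5 in CCl4 livers. It was 0 of 1 for CCl4 against OO at day 0, 1 of 3 for CCl4 chow against CCl4 day 0 and 0 of 2 for later OO chow. The 16 include Sult3a1, which passed the filter only through the OO ethanol arm. The share of all called genes that remained called in every alternative was not counted, so these counts have no background. No called change reversed in any alternative, and over its alternatives a called change was called 439 times and lost 91 times. Within days, all 9 members called with ethanol in OO livers kept their direction at day 20 and at day 23. Their ethanol and chow libraries did not overlap over both days, so this direction was fixed in advance and adds no support. Lane 2 was the single lane with both ethanol arms, with 1 library of each, so no within-lane test was made. No paired analysis was possible because each library has a number of its own. Members under 3 counts per library cannot be told from 0 at this depth.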
